A study of Mus musculus with 16 samples.

Results

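Lubricin, the product of Prg4, is the glycoprotein that lets joint surfaces slide, and 4 of 16 mouse quadriceps libraries held far more of its RNA than the other 12. These 4 lubricin-high libraries were selected on the Prg4 level itself: a counts-per-million value (CPM, the count relative to the summed counts of the library) above 100. They were healthy inhibitor 1, healthy placebo 4, injured placebo 2 and injured placebo 3, and values of the 4 are given in this order throughout. In the study, the anterior cruciate ligament (ACL) of mice was transected. After surgery an inhibitor of CSF1-R, which receives the macrophage growth factor CSF1, was given in the drinking water at 40 mg/kg for 7 days, or 0.5% sucrose as placebo. RNA of the quadriceps was sequenced in 4 groups of 4: healthy and injured quadriceps of inhibitor mice, and healthy and injured quadriceps of placebo mice. The lubricin-high libraries made up 1 of 4 healthy inhibitor, 1 of 4 healthy placebo, 2 of 4 injured placebo and 0 of 4 injured inhibitor libraries. Strain, sex and age were not given in the sources used here. The names of all healthy libraries end in L and those of all injured libraries in R, so a side of the body and the injury cannot be told apart. Each name also has a stem shared by 1 healthy and 1 injured library, and each lubricin-high library had a lubricin-low library with the same stem.

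The knee joint lies against the lower end of the quadriceps. Its lining, the synovium, is made of fibroblasts that secrete lubricin and hyaluronan, interleaved with macrophages, and the surface cells of articular cartilage secrete lubricin too. Cartilage is known by type II collagen and aggrecan, cartilage that is about to mineralise by type X collagen, bone by bone sialoprotein and osteocalcin, and tendon by tenomodulin and scleraxis. Bone marrow adds neutrophil precursors and red cell precursors. Muscle that regenerates after damage switches on the myogenic regulator myogenin, the fusion factor myomaker and embryonic myosin. Which of these gene groups were high where lubricin was high is described below from 30 gene lists, of whose 413 entries 393 were in the deposited table. Since the libraries were chosen by a measured level, differences between them and the other 12 are a description and no test was applied to them.

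All 16 libraries carried the label's tissue: muscle creatine kinase (Ckm) was at 14694 to 22000 CPM and the fast myosin gene Myh4 at 32495 to 72793 CPM. Library totals were 20.12 to 27.13 M counts, and the lubricin-high libraries lay at 21.62 to 23.56 M. Mitochondrial genes took 10.69 to 15.42% of the counts in the lubricin-high libraries. The depth set a floor of 3 counts, which was 0.127 to 0.139 CPM in a lubricin-high library and 0.0106 CPM over the 12 others together, and such floors cover counting error only. In bulk RNA, more cells of a type and more RNA per cell cannot be told apart. Differences are given as the mean of log2(CPM + 0.5) over the 4 libraries minus the mean over the 12. They understate the change of genes near or below 0.5 CPM. The median of this difference over all 17370 genes was 0.12, and the medians of gene lists below are to be read beside it.

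Prg4 (chr1:150449412-150466165, minus strand, GRCm38) stood at 168, 264, 257 and 318 CPM, from 3695, 5697, 6061 and 7138 counts. In the other 12 libraries it ranged from 3.76 to 17.8 CPM, with a median of 10.7. The lowest library inside the threshold, healthy inhibitor 1, thus lay 9.41-fold above the highest outside it, healthy placebo 3. No library came near 100 CPM, and a threshold of 50 CPM picked the same 4. Col2a1, which encodes the type II collagen of hyaline cartilage, was at 1.77, 7.96, 2.84 and 3.03 CPM against 0 to 0.654 (median 0.223) in the 12. Col10a1, the collagen of hypertrophic cartilage, was at 1.36, 0.786, 0.467 and 1.82 CPM against 0 to 0.165, and 10 of the 12 had no count of it. Both collagen genes thus separated the same 4 libraries from the rest, with Col2a1 highest in healthy placebo 4 and Col10a1 in injured placebo 3. Col10a1 is in the deposited table, which asks for 10 counts in some library, through the lubricin-high libraries alone.

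**Figure D1:**
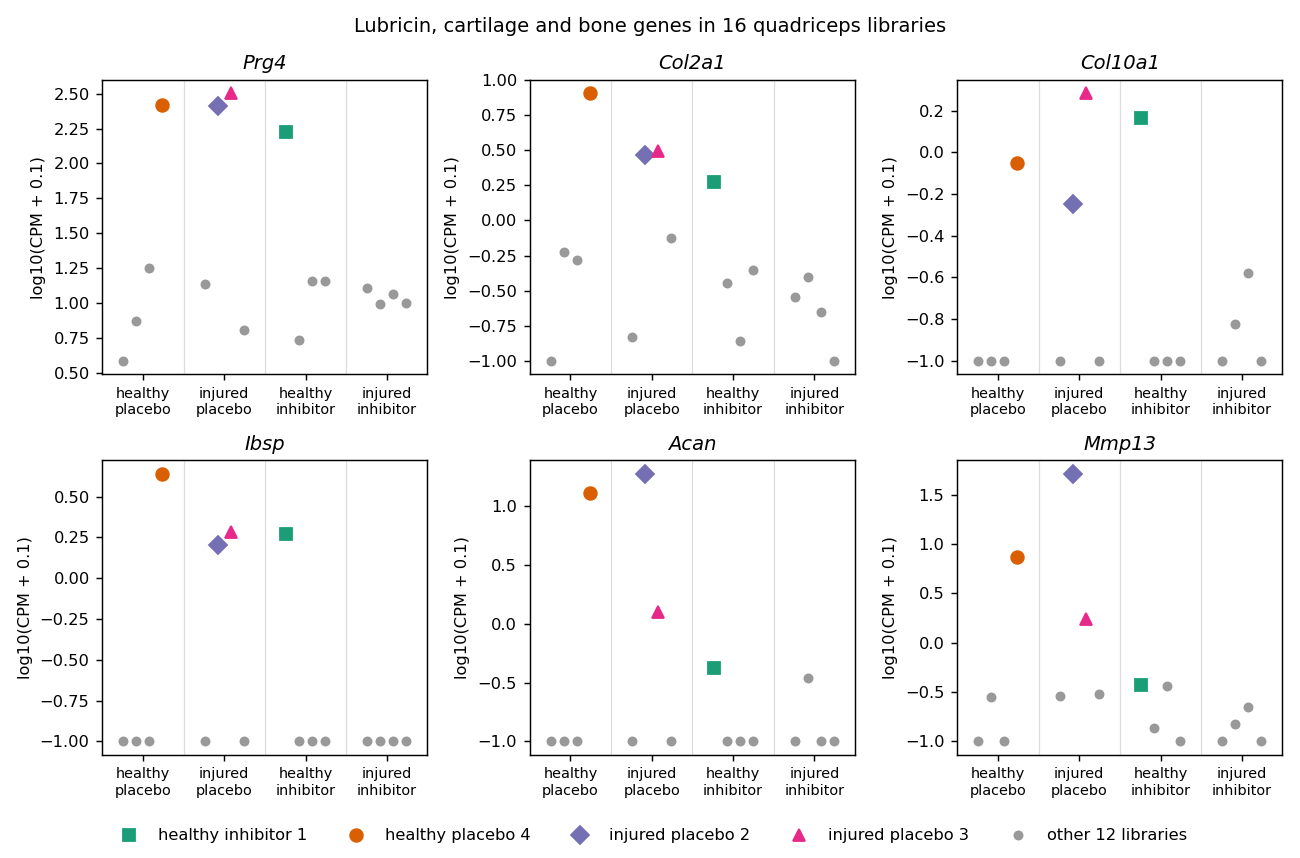
CPM on a log10 axis (with 0.1 added) of Prg4, Col2a1, Col10a1, Ibsp, Acan and Mmp13 in each of the 16 libraries, by labelled group. Large coloured symbols are the 4 lubricin-high libraries and small grey points the 12 others. For each of the 6 genes the coloured symbols lie above all grey points, by the least for Mmp13 in healthy inhibitor 1 (0.273 CPM against a highest other value of 0.262).

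Over the whole table, 439 of 17370 genes (2.53%) were above all 12 other libraries in each of the 4 lubricin-high libraries, and 9 genes (0.0518%) were below all 12. With TMM scaling in place of column totals the split was 378 above and 86 below, and with DESeq2 size factors 390 and 66. One library set the count: without healthy inhibitor 1, 2567 genes (14.8%) were above and 100 (0.576%) below. The small count below also grew to 28 without healthy placebo 4, 20 without injured placebo 2, 16 without healthy placebo 3 and 14 without injured inhibitor 3. Taken singly, healthy inhibitor 1 exceeded all 12 others for 1114 genes (6.41%), healthy placebo 4 for 3854 (22.2%), injured placebo 2 for 6717 (38.7%) and injured placebo 3 for 5577 (32.1%). The commonest combination left healthy inhibitor 1 out: 2128 genes (12.3%) were above all 12 in the other 3 alone. A further 1653 genes (9.52%) were above all 12 in both injured placebo libraries alone, and 8643 (49.8%) in none. The deposited table holds only genes that reach 10 counts in some library. Of its genes, 696 did so in the lubricin-high libraries alone, among them 64 of the 439, so that their presence in the table already depended on where they are high. A count of list members above all 12 is to be read against the 2.53%, and a count in 1 library against that library's own share. A count in the last 3 libraries alone is to be read against the 12.3%, and 1 in both injured placebo libraries alone against the 9.52%.

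**Figure D2:**
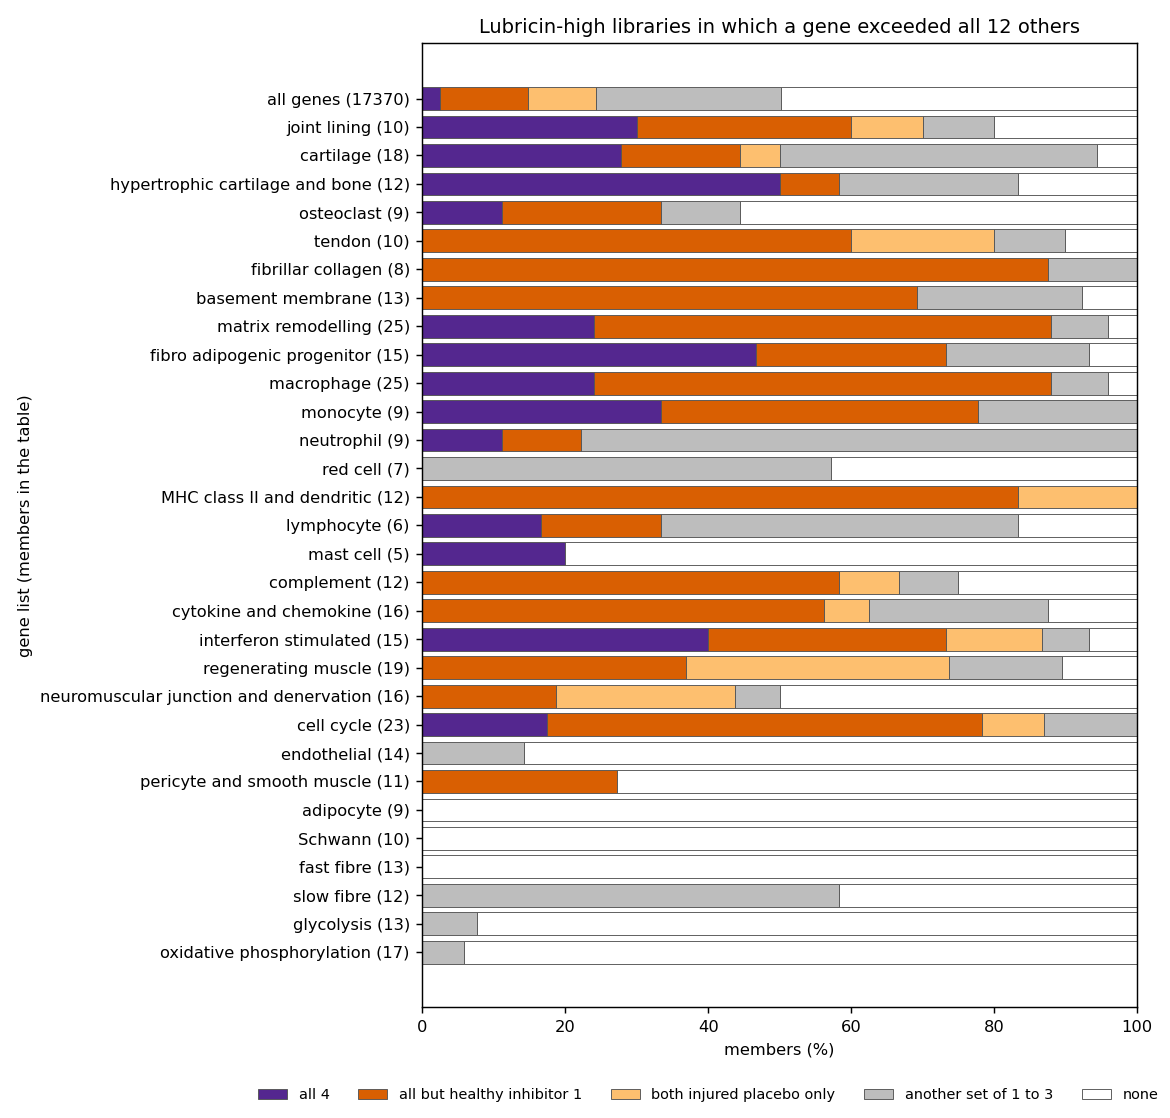
For each gene list and for all genes, the percentage of members in the table (number in parentheses) whose CPM exceeded all 12 other libraries in all 4 lubricin-high libraries, in all but healthy inhibitor 1, in both injured placebo libraries alone, in another set, or in none. Over all genes the first share is 2.53%. It is 50% for hypertrophic cartilage and bone (all 6 in the table through the lubricin-high libraries alone), 46.7% for fibro-adipogenic progenitors and 0% for fibrillar collagens, whose members were above in all but healthy inhibitor 1 (7 of 8).

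Of the joint lining list without Prg4, which chose the libraries, 2 of 9 genes (22.2%) were above all 12 libraries in each of the 4, and the median difference was 0.82. Both were genes of hyaluronan synthesis. Has1, a hyaluronan synthase of the lining, was at 0.727, 2.13, 5.65 and 1.91 CPM against at most 0.42. Ugdh, which makes the glucuronic acid precursor of hyaluronan, was at 11.2, 17.7, 26.9 and 21.5 CPM against 3.91 to 8.96. Has2, another hyaluronan synthase of the list, did not separate, at 0.682, 1.11, 3.1 and 2.71 CPM against 0.0953 to 1.4. Its level in both healthy members lay within the range of the 12. Podoplanin (Pdpn), a surface protein of lining fibroblasts, was at 13.2, 13.9 and 11.5 CPM in the last 3 and at 5 CPM in healthy inhibitor 1, inside the range of the 12 (0.811 to 6.31). Htra1, a secreted protease, was likewise at 57.2, 56 and 51.8 CPM in the last 3 and at 25.3 CPM in healthy inhibitor 1, against 19 to 32, and Htra4 shared this pattern. The other 3 genes described here overlapped in most or all of the 4. Clic5, a chloride channel protein that muscle also expresses, was at 252, 215, 208 and 208 CPM within the 206 to 272 CPM of the 12. Tspan15 was at 8, 8.56, 10.4 and 11 CPM within 6.18 to 12.2. Cd55, a complement regulator on the lining surface, was at 45.1, 47.8, 54.9 and 71.6 CPM, and only the last lay above the 29 to 68.2 CPM of the 12.

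Of the cartilage list, 18 of 25 genes were in the table, 14 of them passed edgeR's filter on low counts, and 5 of the 18 (27.8%) were above all 12 in each of the 4, with a median difference of 0.8. Of the 18, 4 reached the table's 10 counts in lubricin-high libraries alone, among them 1 of the 5, Acan. Acan, which encodes aggrecan, the main proteoglycan of cartilage, differed most among the 4 themselves. It was at 0.318, 12.8, 18.8 and 1.16 CPM, while 11 of the 12 others had no count and the highest, injured inhibitor 2, had 0.249 CPM. Comp, a matrix protein of cartilage and tendon, was at 17.3, 27.3, 53.1 and 31.4 CPM against 1.95 to 10.2. Matn4, a matrilin that links matrix fibres, was at 1.54, 5.23, 4.92 and 2.18 CPM against 0.149 to 1.04. Prelp, a leucine-rich matrix protein, only just separated, with 62.5 CPM in healthy inhibitor 1 against 62.1 in injured placebo 1. The transcription factors of chondrocytes did not separate: Sox9 was at 3.68, 4.07, 5.39 and 3.78 CPM against 1.87 to 4.58, and Sox6, which muscle fibres also express, at 169, 170, 186 and 142 CPM against 167 to 214. Col11a1, a collagen built into type II fibrils, was at 35.8, 22.7 and 4.45 CPM in the last 3 but at 1.86 CPM in healthy inhibitor 1, within 0.295 to 3.3 for the 12. Cytl1, a cytokine-like protein of chondrocytes, was highest in healthy inhibitor 1 at 4.59 CPM, above the 3.21 CPM of the highest other library. It stood at 1.57, 0.509 and 1.96 CPM in the rest of the 4. The cartilage genes were thus not in 1 ratio across the 4 libraries.

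Of the hypertrophic cartilage and bone list, 12 of 15 genes were in the table, 7 of them passed edgeR's filter, and 6 were above all 12 libraries in each of the 4. All 6 reached the table's 10 counts in lubricin-high libraries alone, and of the 6 that reached them among the 12, 0 separated. The count is therefore given as a description of single genes. The list's median difference was 0.84, or 0.98 with the genes at 0 in all 12 set to their bound. For such low levels the size depends on the constant added before the logarithm: the median was 2.04 with 0.1 CPM and 0.31 with 2 CPM. Ibsp, which encodes bone sialoprotein, had no count in any of the 12 and was at 1.77, 4.26, 1.49 and 1.82 CPM, from 39, 92, 35 and 41 counts. Against 3 counts over the 12 together its mean was at least 221-fold higher. Bglap, an osteocalcin gene, also had no count in the 12 and was at 0.227, 0.313, 0.573 and 0.623 CPM, at least 41.1-fold higher by the same bound. Its near-identical neighbour Bglap2 was at 0.363, 0.982, 0.616 and 0.668 CPM, and how the authors' counting divided reads between them is uncertain. Sp7, the osteoblast transcription factor osterix, had 8, 16, 10 and 2 counts and 1 count in all 12. In injured placebo 3 it was thus under the floor of 3 counts and its separation there was not detectable at this depth. Mmp13, a collagenase of hypertrophic chondrocytes and osteoblasts, spread most, at 0.273, 7.26, 51.2 and 1.65 CPM against 0 to 0.262. In healthy inhibitor 1 its gap to the highest of the 12, healthy inhibitor 3, was smaller than the floor of 0.136 CPM. Its separation there was thus not detectable at this depth. Runx2, the transcription factor upstream of several of these genes, was at 2.64, 5.22 and 2.36 CPM in the last 3 and at 0.813 CPM in healthy inhibitor 1, within the 0.193 to 0.99 CPM of the 12. Alpl, the alkaline phosphatase of mineralising tissue, did not separate, at 14.3, 6.34, 8.79 and 9.08 CPM against 7.24 to 13.7.

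Because these bone and hypertrophic cartilage genes were near absent from the 12 libraries, the 250 bases before their RefSeq start (GRCm38.p6) are shown for the 4 of them with an entry in the promoter table. Lower case is used except for 2 motifs searched on both strands: TGTGGT, the core letters of Runx sites, which read ACCACA on the other strand, and the TATA box letters TATAAA, which read TTTATA there. The first was in 14% of the 32851 promoter windows of this length and the second in 12.4%, and the motifs do not overlap each other. Ibsp is at chr5:104299037-104299286 on the plus strand, Bglap at chr3:88384467-88384716 on the minus strand, Col10a1 at chr10:34389731-34389980 on the plus strand and Mmp13 at chr9:7272264-7272513 on the plus strand. GENCODE M21 lists Ibsp from base 104299171, inside its window.
Ibsp: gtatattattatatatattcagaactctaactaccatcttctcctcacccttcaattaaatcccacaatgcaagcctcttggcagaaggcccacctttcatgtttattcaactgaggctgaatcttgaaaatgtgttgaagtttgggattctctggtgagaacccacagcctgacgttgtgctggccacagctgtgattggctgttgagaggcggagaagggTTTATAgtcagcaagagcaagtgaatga
Bglap: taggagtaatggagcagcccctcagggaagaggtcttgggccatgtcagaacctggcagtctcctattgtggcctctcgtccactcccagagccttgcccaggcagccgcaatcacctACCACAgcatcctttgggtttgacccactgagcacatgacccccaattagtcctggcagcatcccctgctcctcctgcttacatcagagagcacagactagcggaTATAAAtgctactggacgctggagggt
Col10a1: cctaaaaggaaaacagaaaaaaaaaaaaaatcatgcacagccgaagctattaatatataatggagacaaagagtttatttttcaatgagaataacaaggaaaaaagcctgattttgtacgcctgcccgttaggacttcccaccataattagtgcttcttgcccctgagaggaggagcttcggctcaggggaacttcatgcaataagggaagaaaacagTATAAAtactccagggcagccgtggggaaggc
Mmp13: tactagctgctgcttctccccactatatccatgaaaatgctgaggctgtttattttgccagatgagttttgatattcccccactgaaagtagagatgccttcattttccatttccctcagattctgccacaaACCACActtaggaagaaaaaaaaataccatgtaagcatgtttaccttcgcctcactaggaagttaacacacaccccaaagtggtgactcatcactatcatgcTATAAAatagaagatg
Each of the 4 windows held 1 match to the TATA box letters, and Bglap and Mmp13 held 1 match each to the Runx core. A match is a description of the letters and no site was measured here.

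Osteoclast genes, which encode the machinery of bone resorption, separated in 1 of 9 (11.1%). That gene, Atp6v0d2, reached the table's 10 counts in lubricin-high libraries alone, and of the 8 that reached them among the 12, 0 separated. Atp6v0d2, a proton pump subunit of osteoclasts and macrophages, was at 0.227, 1.02, 1.44 and 1.38 CPM against at most 0.143. Ctsk, the collagen-degrading cathepsin K, was at 32.1, 33.6 and 24.1 CPM in the last 3, and at 5.32 CPM in healthy inhibitor 1 within the 0.553 to 5.65 CPM of the 12. Acp5, the tartrate-resistant phosphatase, overlapped in each of the 4, at 4.27, 3.38, 10.1 and 3.2 CPM against 0.398 to 18.4.

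Tendon genes did not separate as a group of 4 libraries: 0 of 10 were above all 12 in each, though 6 of 10 were in all but healthy inhibitor 1, and the median difference was 0.96. Tenomodulin (Tnmd), a membrane protein of tendon cells, was at 6.09, 15.6, 15.6 and 20.5 CPM against 1.22 to 12.7. Scleraxis (Scx), the tendon transcription factor, was at 8.68, 9.2, 20.6 and 9.3 CPM against 2.43 to 8.8. Tenascin C (Tnc), a matrix protein of tendon and of wounds, was at 73.9, 105 and 35.3 CPM in the last 3 against 0.627 to 10.5. In healthy inhibitor 1 each of these 3 genes lay within the range of the 12, Scx near its upper end, and the list's median difference from the mean of the 12 was 0.35 there.

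Fibrillar collagens, the bulk protein of tendon, scar and synovium, showed the same division more sharply. Of 8 genes, 7 were above all 12 in the last 3 libraries and 0 in healthy inhibitor 1, with a median difference of 2.73. Col1a1 was at 114, 2197, 1716 and 728 CPM against 16.3 to 208 (median 77.8). Col3a1 was at 178, 1957, 1872 and 1177 CPM against 20.5 to 325, and Col5a1 at 29.6, 305, 240 and 131 CPM against 6.82 to 40.6. The highest of the 12 for each of these collagens was injured inhibitor 3, and healthy inhibitor 1 lay below it. Their summed level was 518, 6431, 5591 and 2974 CPM against 81.2 to 883 CPM.

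Among 25 matrix remodelling genes, 6 (24%) were above all 12 in all 4 libraries and 16 more in the last 3 alone, with a median difference of 1.69. Fibronectin (Fn1) was at 237, 1023, 997 and 774 CPM against 20.8 to 135. Loxl2 and Loxl1, which cross-link collagen and elastin, followed with 21.6, 66.1, 94.7 and 63.8 CPM (others at most 19.8) and 22.9, 56.5, 58.2 and 48.5 CPM (others at most 21.2). Timp2, an inhibitor of metalloproteinases, was at 132, 310, 287 and 267 CPM against 55.9 to 116. Fibronectin and these 2 cross-linkers separated also in healthy inhibitor 1. Lox, the lysyl oxidase that gave the family its name, did not, at 15.4 CPM there within the 7.37 to 24.1 CPM of the 12, and at 86, 156 and 69.5 CPM in the rest. Periostin (Postn), a matrix protein of healing tissue, was at 13.1 CPM there, within the 2.87 to 33.6 CPM of the 12, but at 578, 509 and 238 CPM in the last 3. Basement membrane genes separated in 0 of 13 across the 4 and in 9 of 13 in the last 3 alone (median difference 0.42). For example, Col4a1 was at 109, 132, 139 and 134 CPM against 64.5 to 128.

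Fibro-adipogenic progenitor genes, which mark the fibroblast-like cells between muscle fibres and are shared with fascia and synovium, separated in 7 of 15 (46.7%), with a median difference of 1.03. Mfap5, a microfibril protein, was at 15.9, 38.3, 37.1 and 31.8 CPM against 2.43 to 14.7. Dpp4, a surface peptidase of fibroblast progenitors, was at 8.77, 12.1, 10.1 and 12.1 CPM against 0.442 to 6.59, and Thy1 at 13.9, 27.9, 37.8 and 38 CPM against 2.14 to 12.1. Clec3b, tetranectin, was at 39.7, 47.3, 42.9 and 65.3 CPM against 5.75 to 31.8. Healthy inhibitor 1 was the lowest of the 4 for each of these genes but still lay above all 12. The receptor Pdgfra, which defines the progenitors, was at 32.7 CPM in healthy inhibitor 1 within the 11.9 to 35.7 CPM of the 12, and at 46.2, 48.1 and 53.4 CPM in the rest.

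Macrophage genes followed lubricin in the last 3 libraries and in part in healthy inhibitor 1. Of 25 genes, 6 (24%) were above all 12 in all 4, 16 more were above in the last 3 alone, and the median difference was 2.72. Among the 6, 1 reached the table's 10 counts in lubricin-high libraries alone. The summed level of the 25 was 131, 421, 884 and 679 CPM against 48.9 to 160 CPM. Galectin-3 (Lgals3), abundant in activated macrophages, was at 4.59, 26, 95.4 and 67.3 CPM against 1.14 to 3.17. Cd68, a lysosomal protein of phagocytes, was at 2.41, 14.8, 30.5 and 21.8 CPM against 0.248 to 2.21, and C1qa, a subunit of complement C1q, at 11.9, 30.8, 78 and 57.4 CPM against 1.77 to 8.05. Each of these was lowest in healthy inhibitor 1 and highest in injured placebo 2. Vsig4, a complement receptor of tissue-resident macrophages, was more even at 1.18, 2.45, 2.59 and 3.07 CPM against 0 to 0.3. Csf1r, the target of the inhibitor, was at 31.4, 74.5 and 66.6 CPM in the last 3, and at 14.4 CPM in healthy inhibitor 1 within the 1.73 to 17.5 CPM of the 12. Trem2, a lipid receptor of macrophages, was at 0.454 CPM there against 0.0369 to 0.495, and at 6.98, 19.7 and 14.4 CPM in the rest. Cd163, a scavenger receptor of resident macrophages, was at 8.41, 8.42, 7.09 and 16.2 CPM, and only injured placebo 3 exceeded the 0.958 to 13.7 CPM of the 12.

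Monocyte genes separated in 3 of 9 (33.3%, median difference 2.17), among them S100a4, a calcium-binding protein of motile cells, at 4.73, 10.1, 49 and 35.8 CPM against 0.258 to 3.47. Of the 9 genes, 3 reached the table's 10 counts in lubricin-high libraries alone, among them 1 of the 3 that separated. The chemokine receptor Ccr2 was at 3.54, 18.4, 64.1 and 54.4 CPM against 1.22 to 7.79, so it overlapped in healthy inhibitor 1. MHC class II and dendritic cell genes, which present antigen, were above all 12 in 0 of 12 genes in healthy inhibitor 1, in 10 in healthy placebo 4 and in 12 in both injured placebo libraries, with a median difference of 1.86. Of these 12 genes, 1 reached the table's 10 counts in lubricin-high libraries alone. The invariant chain gene Cd74 was at 41.8, 112, 190 and 269 CPM against 13.9 to 60.7. H2-Aa was at 16.9, 44.1, 104 and 120 CPM against 4.42 to 28. Both were highest in injured placebo 3, where macrophage genes were second to injured placebo 2. Complement genes separated in 0 of 12 across the 4 and in 7 in the last 3 alone (median difference 1.03), but complement factor D (Cfd), which fat cells make, was at 146, 26.6, 12.6 and 55.3 CPM against 14.6 to 719. Cytokine and chemokine genes separated in 0 of 16 across the 4 and in 9 in the last 3 alone (median difference 0.89). Of the 16, 4 reached the table's 10 counts in lubricin-high libraries alone. The 12 that reached them elsewhere too exceeded all 12 libraries in 0, 7, 9 and 9 genes by library. The monocyte attractant Ccl2 was at 0.636, 1.2, 6.11 and 2.27 CPM against 0 to 0.842.

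Neutrophil genes differed among the 4 libraries. The list's median difference was 1.9, or 2.68 and 1.04 with 0.1 and 2 CPM added. Of 9 in the table, 7 were above all 12 in healthy inhibitor 1, 8 in healthy placebo 4, 9 in injured placebo 2 and 2 in injured placebo 3. Only 3 of the 9 passed edgeR's filter, and 6 reached the table's 10 counts in lubricin-high libraries alone, so these counts say little beyond the single genes. Ngp, a granule protein of neutrophil precursors in bone marrow, was at 4, 6.52 and 3.06 CPM (88, 141 and 72 counts) in the first 3. Injured placebo 3 had no count of it, and the 12 others had 3 counts in all. S100a8, a subunit of calprotectin, was at 4.5, 6.06, 4.54 and 0.089 CPM against 0 to 0.405. Lactoferrin (Ltf), another granule protein, was the 1 gene of the list above all 12 in all 4, at 3.36, 4.58, 2.89 and 0.4 CPM against 0 to 0.0857. Camp, a granule peptide, had 17, 39, 17 and 0 counts against 1 count in the 12. Injured placebo 3, the library with the highest Prg4, thus had no count of Ngp or Camp and 9 of Ltf. Csf3r, another gene of the list, went the other way, at 0.591, 2.22, 6.37 and 3.83 CPM against 0.0496 to 0.948. It was above all 12 in injured placebo 3 but within their range in healthy inhibitor 1.

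Of 7 red cell genes, 0 were above all 12 in all 4 libraries and 2 in the first 3 alone. Both of the latter reached the table's 10 counts in lubricin-high libraries alone. Slc4a1, the anion exchanger of the red cell membrane, was at 3.04, 2.22, 3.86 and 0 CPM against 0 to 0.258. Alas2, the haem synthesis enzyme of red cell precursors, overlapped at 4.58, 1.84, 3.14 and 0.845 CPM against 0.694 to 5.57. So did the globins, which mature blood cells carry everywhere: Hbb-bs was at 181, 112, 127 and 81 CPM against 42.1 to 197. The globin genes are near-identical pairs, between which reads can be split. Lymphocyte genes separated in 1 of 6, Cd2, a surface protein of T cells, at 0.454, 1.06, 1.44 and 0.979 CPM against 0 to 0.337. Cd2 reached the table's 10 counts in lubricin-high libraries alone, and of the 4 that reached them among the 12, 0 separated. T cell Cd3e overlapped at 1.64, 1.67, 2.29 and 1.65 CPM against 0.889 to 3.47. Mast cell proteases did not separate: Mcpt4 was at 2.23, 2.17, 2 and 4.72 CPM against 0.258 to 4.86. The growth factor receptor Kit, on mast cells and other progenitors, was the 1 of 5 genes of that list above all 12, at 1.86, 1.8, 2.84 and 2.67 CPM against 0.298 to 1.77.

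Interferon-stimulated genes separated in 6 of 15 (40%), with a median difference of 1.39, and they did so at moderate levels in healthy inhibitor 1 as well. Among these 6, 1 reached the table's 10 counts in lubricin-high libraries alone. Irf7, the transcription factor that amplifies the interferon response, was at 5.91, 10.1, 30.8 and 23 CPM against 2.04 to 4.26. Ifit1, an RNA-binding antiviral protein, was at 4.68, 9.11, 7.6 and 10.9 CPM against 1.26 to 3.38, and Ifit3 at 6.28, 9.74, 15.9 and 15.8 CPM against 1.72 to 5.5.

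Cell-cycle genes separated in 4 of 23 (17.4%) and were above all 12 in 14 more in the last 3 alone, with a median difference of 1.65. Of the 23 genes, 5 reached the table's 10 counts in lubricin-high libraries alone, among them 2 of the 4 that separated. The proliferation marker Mki67 was at 1.77, 11.6, 22.8 and 13 CPM against 0.0369 to 1.16, and Top2a, the topoisomerase of dividing cells, at 0.727, 5.46, 16.8 and 7.25 CPM against 0 to 1.44. Injured placebo 2 exceeded all 12 in each of the 23 genes, and so in all 18 that reached 10 counts among the 12. Its share over all genes was 38.7%. Genes of the replication fork that resting tissue also expresses overlapped more: Pcna was at 14.8, 12.8, 22.5 and 19.4 CPM against 11.2 to 15.6.

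**Figure D3:**
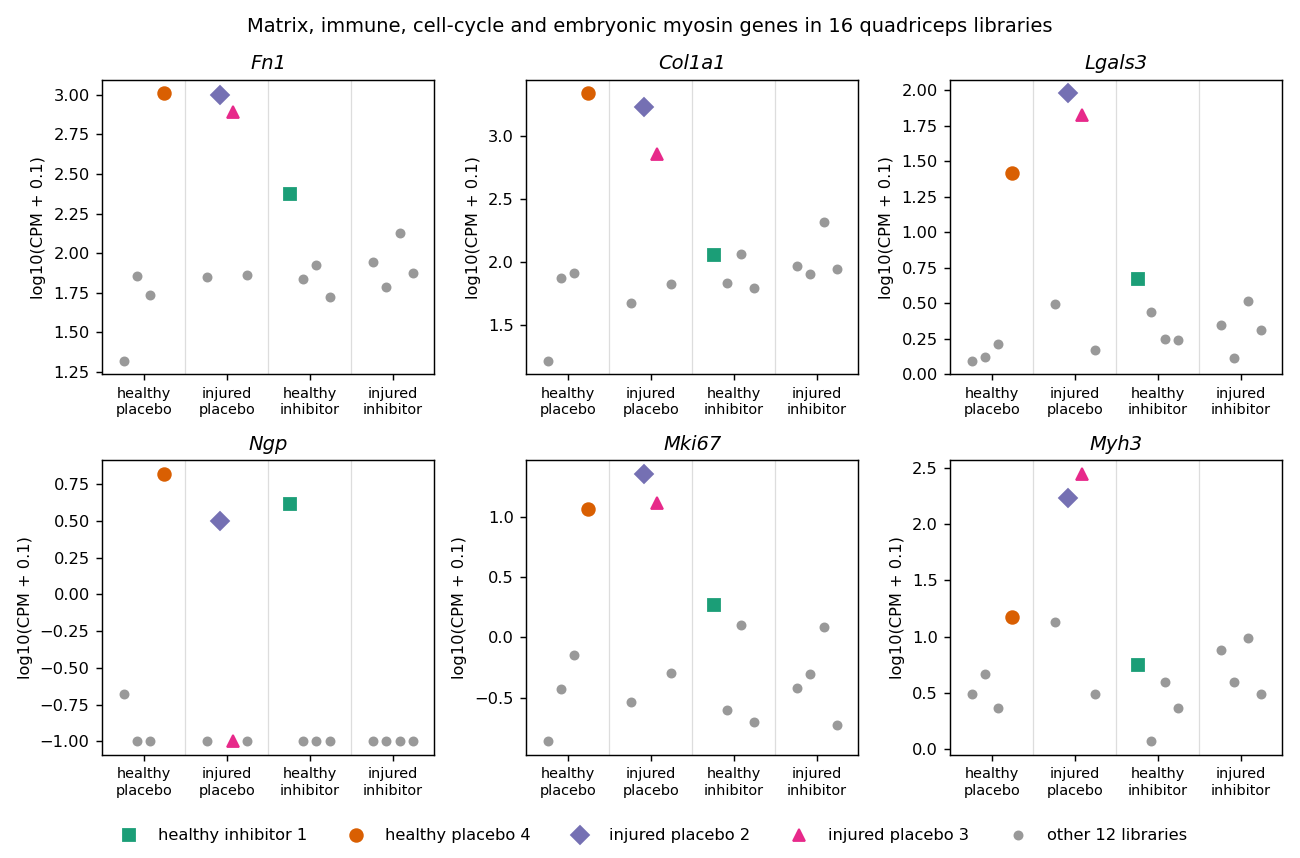
CPM on a log10 axis (with 0.1 added) of Fn1, Col1a1, Lgals3, Ngp, Mki67 and Myh3 in each of the 16 libraries, by labelled group, with the symbols of the joint gene plot. Fn1, Lgals3 and Mki67 separate all 4 lubricin-high libraries, Col1a1 the last 3 (728 to 2197 CPM against at most 208), Ngp all but injured placebo 3 (no count), and Myh3 is far above the rest in both injured placebo libraries (169 and 280 CPM).

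Regenerating-muscle genes were highest in the injured members of the 4. None of the 19 was above all 12 in all 4 libraries, 7 were above in the last 3 alone, and a further 7 in both injured placebo libraries alone, with a median difference of 1.13. Over all genes, the shares of these 2 combinations were 12.3 and 9.52%. By library, 0 of 19 exceeded all 12 in healthy inhibitor 1, 7 in healthy placebo 4, 14 in injured placebo 2 and 17 in injured placebo 3. The shares over all genes were 6.41, 22.2, 38.7 and 32.1%, so a part of this rise was shared by genes at large. Embryonic myosin (Myh3) was at 5.5, 14.8, 169 and 280 CPM against 1.07 to 13.5 (median 3.4). Myomaker (Mymk), which fuses myoblasts, was at 0, 2.64, 20.4 and 29.4 CPM against 0 to 0.412. Myogenin (Myog) was at 6.32 and 6.06 CPM in the healthy members, within the 2.86 to 7.26 CPM of the 12, and at 52.1 and 37.4 CPM in the injured ones. Healthy placebo 4 thus held a little of the fusion and embryonic myosin RNA without more myogenin. Pax7, the transcription factor of satellite cells, was above the 1.66 to 4.07 CPM of the 12 in the injured members alone, at 5.22 and 5.87 CPM. Myod1, which commits them to muscle, overlapped at 30.9, 23.5, 35.6 and 28 CPM within 14.4 to 39.3.

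Neuromuscular junction and denervation genes were above all 12 in 0, 3, 7 and 8 of 16 by library (median difference 0.23). Of the 16, 1 reached the table's 10 counts in lubricin-high libraries alone. The shares over all genes were 6.41, 22.2, 38.7 and 32.1%, so the counts in the first 3 libraries were near those of any genes. The fetal acetylcholine receptor subunit Chrng was at 0, 1.8, 16.3 and 19.2 CPM against 0 to 0.15. Its adult counterpart Chrne was at 4.82, 5.5, 8.83 and 7.83 CPM against 6.23 to 12.3. Runx1, a transcription factor known from denervated muscle and from blood cells, was at 2.41, 19.2, 27.5 and 19.1 CPM against 1.37 to 5.67. Junction scaffold genes overlapped, as Dok7 did at 17.5, 16, 18.4 and 17.1 CPM against 13.3 to 21.6.

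Several lists had no member that separated the 4 libraries. Over all genes 2.53% did, so a count of 0 is near that share for lists of this size and is no trait of the list. The same holds for the lists with a count of 0 described above. Of the genes of endothelium (14), fast fibres (13), adipocytes (9) and Schwann cells (10), 0 were above all 12 in all 4 libraries, and the same held for pericytes and smooth muscle (11), glycolysis (13) and oxidative phosphorylation (17). The endothelial adhesion gene Pecam1 was at 57.5, 55.2, 55.6 and 55.7 CPM within 45.9 to 87.8, and the list median was -0.08. The VEGF receptor gene Kdr was at 55, 49.6, 38.8 and 40.6 CPM against 50.5 to 80.2, so 3 of the 4 lay below all 12. The pericyte gene Rgs5 was at 262, 206, 183 and 186 CPM against 199 to 314 (list median -0.01), while Acta2, the actin of smooth muscle and myofibroblasts, was at 27, 50.6 and 51.7 CPM in the last 3 against 10.1 to 20.3, as 3 of the 11 pericyte and smooth muscle genes were. Fast fibre and glycolysis medians were 0.09 and 0.07, and they were -0.08 and -0.09 with TMM scaling and -0.05 and -0.07 with DESeq2 size factors, so neither has a direction. Oxidative phosphorylation genes had a median of -0.11 (-0.27 with TMM scaling) and lay between -0.18 and 0.03.

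Adipocyte genes were low in 2 of the 4 and variable among the 12. Adiponectin (Adipoq) was at 24.5, 4.02, 2.89 and 16.1 CPM against 1.84 to 101 (median 32.8), and perilipin (Plin1) at 20.4, 4.26, 2.42 and 15 CPM against 2.19 to 98.9 (median 35). All 9 differences were negative (median -0.82), and 0 genes separated. The Schwann list had a median of -0.42, with 8 of 10 differences negative. Slow fibre genes varied by library: slow myosin (Myh7) was at 1279, 277, 552 and 1676 CPM against 5.29 to 1514. Their median difference was 1.25 but only injured placebo 3 exceeded all 12, in 7 of 12 genes.

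**Figure D4:**
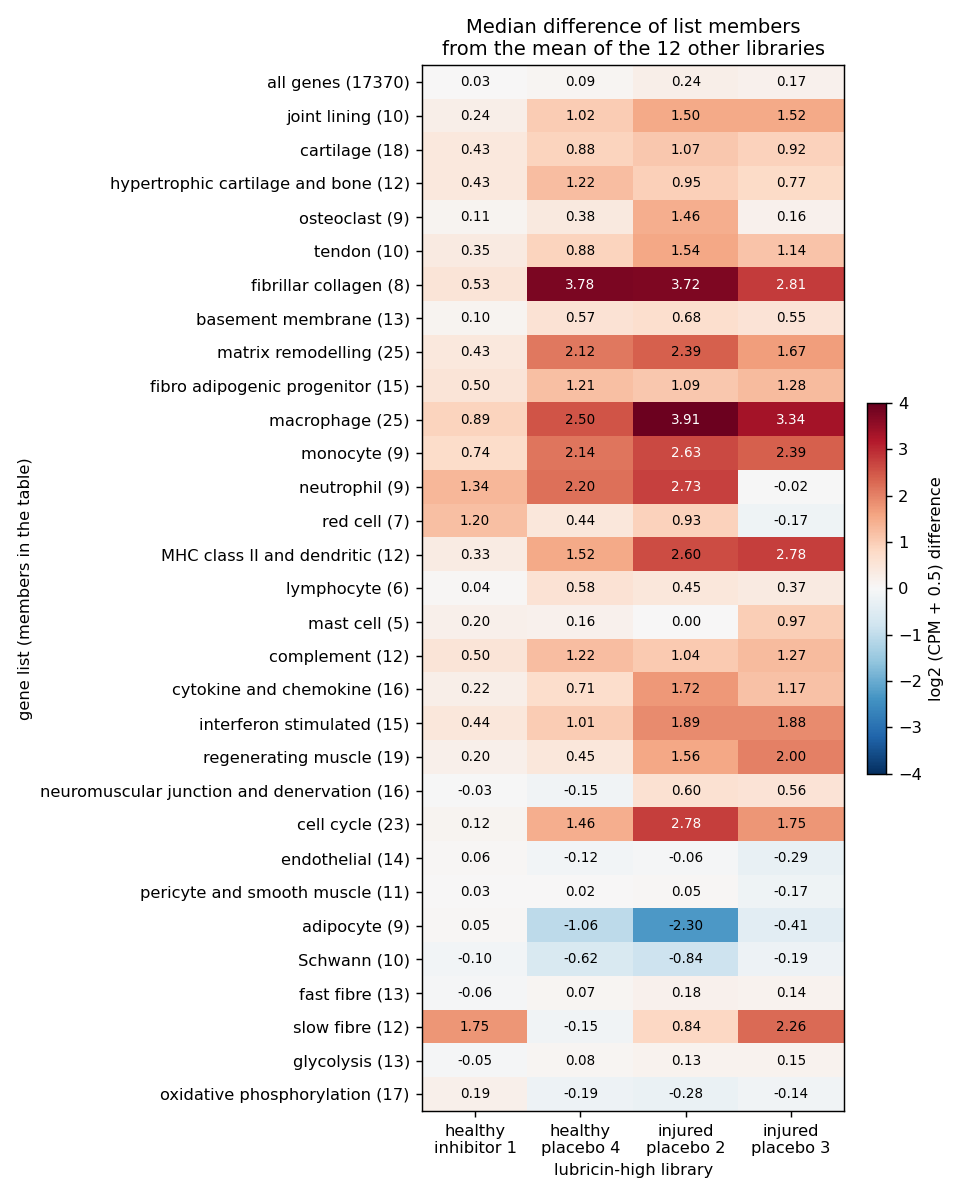
Median difference of log2(CPM + 0.5) of each list's members between a lubricin-high library (columns) and the mean of the 12 other libraries, with all genes in the first row and the value written in each cell. Fibrillar collagens stand at 0.53, 3.78, 3.72 and 2.81, macrophage genes at 0.89, 2.5, 3.91 and 3.34, neutrophil genes at 1.34, 2.2, 2.73 and -0.02, and regenerating muscle at 0.2, 0.45, 1.56 and 2. Of the 9 neutrophil genes, 6 reached the table's 10 counts in lubricin-high libraries alone.

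Set side by side, the 4 libraries shared lubricin, type II and X collagen, bone sialoprotein, fibronectin and part of the fibroblast, macrophage and interferon genes, and differed in the rest. Lubricin chose the libraries, and the genes of type X collagen and bone sialoprotein reached the table's 10 counts in them alone. Neutrophil genes had a median difference from the mean of the 12 of 1.34, 2.2, 2.73 and -0.02, and red cell genes of 1.2, 0.44, 0.93 and -0.17. Healthy inhibitor 1 had fibrillar collagens at 0.53, class II genes at 0.33 and regenerating muscle at 0.2. Healthy placebo 4 had the highest fibrillar collagen median (3.78) and macrophage genes at 2.5, with regenerating muscle at 0.45. Injured placebo 2 had the highest macrophage (3.91) and cell-cycle (2.78) medians and the lowest adipocyte median (-2.3). Injured placebo 3 had the highest class II (2.78) and regenerating muscle (2) medians. The joint lining median, Prg4 included, was 0.24, 1.02, 1.5 and 1.52, and the bone median 0.43, 1.22, 0.95 and 0.77. In lubricin-high libraries alone, 6 of 12 bone and 6 of 9 neutrophil genes reached the table's 10 counts. So did 2 of 7 red cell and 5 of 23 cell-cycle genes. The medians of these lists thus depend in part on where such genes are high, and are a description only. The part that other cell types, depth or any single library play in these differences was not tested.

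Each lubricin-high library was also set against the other quadriceps with the same stem in its name, which was injured for the healthy members and healthy for the injured members. Prg4, whose direction the choice of libraries fixes, differed by 3.67, 5.26, 5.05 and 4.12 on the log2(CPM + 0.5) scale. Fn1 was higher by 1.44, 3.8, 3.79 and 3.82, and Comp by 1.09, 2.65, 2.86 and 1.82. For Col1a1 the differences were 0.28, 5.03, 4.5 and 3.16, for Tnmd -0.29, 2.05, 1.33 and 1.45, and for Myh3 -0.4, 2.13, 5.09 and 6.69. In healthy placebo 4, a library labelled healthy, collagen was thus higher than in the injured quadriceps with its stem. Of the list members, 20 of 25 matrix remodelling, 22 of 25 macrophage, 13 of 15 fibro-adipogenic and 14 of 15 interferon-stimulated genes were higher in all 4 such pairs. That compares with 4012 genes (23.1%) of the whole table. For fibrillar collagens it was 5 of 8, for regenerating muscle 8 of 19, for neutrophil genes 4 of 9, for pericyte and smooth muscle genes 4 of 11, and for endothelial, adipocyte, Schwann, fast fibre and glycolysis genes 0.

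**Figure D5:**
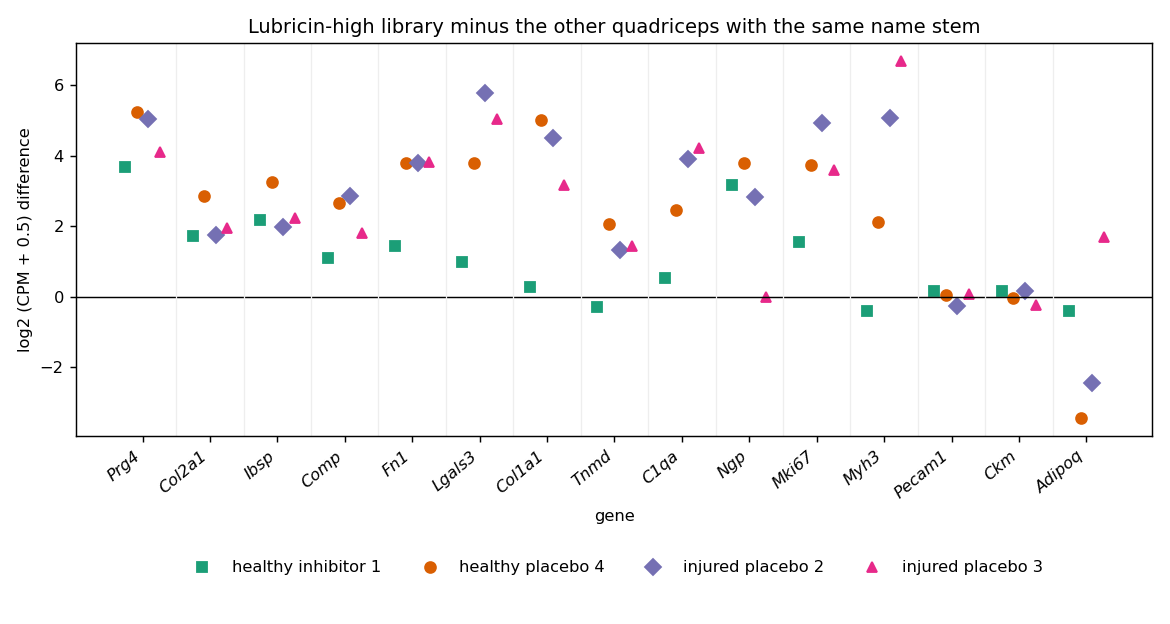
Difference in log2(CPM + 0.5) between each lubricin-high library and the other quadriceps with the same name stem, for 15 genes. Points above the line at 0 are higher in the lubricin-high library: all 4 for Prg4 (by the choice of libraries), Col2a1, Ibsp, Comp, Fn1, Lgals3, Col1a1, C1qa and Mki67, with Pecam1 and Ckm near 0 and Adipoq on both sides.

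Outside the lists, the genes above all 12 with a mean CPM of at least 1 and the highest differences included the following. Ly86, a partner of a toll-like receptor on B cells and macrophages, was at 1.64, 5.13, 13.7 and 12.2 CPM against 0.0369 to 1.05. Anxa8, an annexin, was at 3.04, 6.24, 11.5 and 10.7 CPM against 0.0409 to 1.5, and Tubb2b, a tubulin, at 2.57, 6.78, 27.4 and 25.2 CPM against 0.296 to 2.25. The leukocyte integrin subunit Itgb2 was at 2.64, 8.88, 31.1 and 18.3 CPM against 0.597 to 2.57. Cd44, the receptor for hyaluronan, was at 8.77, 23.9, 75.4 and 48.1 CPM against 3.38 to 8.2. All of these were lowest in healthy inhibitor 1. Genes below all 12 differed by little: Ston2, which sorts synaptic vesicle proteins, was at 134, 133, 133 and 109 CPM against 141 to 188, and Mrs2, the magnesium channel of mitochondria, at 79.3, 72.6, 76.8 and 73.4 CPM against 80.9 to 97.1.

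The labelled comparisons were the tests that the study's design allows, and the lubricin-high libraries sit in 3 of its 4 groups. EdgeR's quasi-likelihood test with Benjamini-Hochberg adjustment over 15411 genes called 0 genes (0%) at 0.05 in each of the 4 comparisons. These set injured against healthy quadriceps first in placebo and then in inhibitor mice, and inhibitor against placebo mice first in the injured and then in the healthy quadriceps. At an unadjusted p under 0.05 there were 1116, 202, 2289 and 514 genes in this order, and DESeq2 called 0, 0, 253 and 12. Without injured placebo 4, which is lubricin-low, edgeR called 3, 0, 39 and 0 genes. Leaving out healthy placebo 1 gave 0, 0, 1 and 1, and leaving out injured placebo 1 gave 1 in the last comparison alone. At an unadjusted p under 0.05 in edgeR, other libraries mattered about as much. For the inhibitor in injured quadriceps there were 3182 genes without injured placebo 1 and 3232 without injured placebo 4. For injury with placebo there were 2553 without healthy placebo 4 and 2499 without injured placebo 4. The cause of these rises was not tested. The p-values measure only the spread between these samples, which the labels call biological replicates. Without the 4 lubricin-high libraries edgeR again called 0 genes in each comparison, of 15786 tested, with 621, 539, 999 and 512 at an unadjusted p under 0.05.

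The 4 libraries were chosen for Prg4, and the genes below were named with their high levels there known, so the estimates with and without the 4 are a description of how far these libraries set them. For the inhibitor in injured quadriceps, where 2 of the 4 placebo libraries are lubricin-high, the log2 fold change of Prg4 was -3.56 ± 1.59 (SE, adjusted p = 0.32 by edgeR) with all libraries and 0.21 ± 0.61 (adjusted p = 0.98) without the 4. For Col1a1 it was -2.23 ± 1.34 (adjusted p = 0.46) and 1.08 ± 0.67 (adjusted p = 0.84). C1qa stood at -2.6 ± 1.02 (adjusted p = 0.27) and -0.06 ± 0.4 (adjusted p = 0.99), Mki67 at -4.03 ± 1.69 (adjusted p = 0.3) and 0.67 ± 1.15 (adjusted p = 0.96), and Myh3 at -4.09 ± 1.14 (adjusted p = 0.22) and -0.37 ± 0.63 (adjusted p = 0.96). None of these passed edgeR's test either way. By DESeq2 with all libraries Myh3 did, at -4.08 (adjusted p = 0.011). For injury with placebo, the estimate for Myh3 was 4.1 ± 1.14 (adjusted p = 0.64) with all libraries and 1.22 ± 0.67 (adjusted p = 0.98) without the 4. For the inhibitor in healthy quadriceps, where each group holds 1 lubricin-high library, Col1a1 was at -2.62 ± 1.36 (adjusted p = 1.0) with all and 0.49 ± 0.6 (adjusted p = 1.0) without.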

How the data were processed

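RNA of 16 mouse quadriceps was sequenced. The build was GRCm38/mm10 and the tools included DESeq2, Partek and STAR, per the submitters' processing notes, in which their roles and versions are not given. The annotation release is not given in the sources used here. The authors deposited 1 table of expected counts per Ensembl gene, not normalized: 33.8% of values were not whole, and each of the 17370 genes reached 10 in some library. All columns of the table were mapped to samples by name. Symbols and positions came from GENCODE M21 by Ensembl ID (17338 genes with a symbol, 32 without). For 15 duplicate symbols the ID with the highest mean was used. How the counting treated strand and copies is not given in the sources used here, so near-identical and overlapping genes are uncertain.

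CPM were computed from the deposited values and column totals. A gene is above (below) all 12 where its CPM in every lubricin-high library exceeds (is under) that in all 12 others. No test was run on this contrast. Genes at 0 in all 12 have a bound from 3 counts over the 12. For the labelled comparisons, counts were rounded, filtered with filterByExpr (minimum count 10), scaled by TMM and fitted to 4 group means over 16 libraries with edgeR 4.0.16 in R 4.3.3 (12 residual degrees of freedom, common biological coefficient of variation 0.284), two-sided, Benjamini-Hochberg at 0.05. DESeq2 1.42.0 was an alternative. The edgeR step and the separation step were tested on simulated data. Alternatives are in the closing section.

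The 4 libraries and the 30 gene lists were chosen with earlier results of these data known. The naming rule took Prg4, Col2a1 and Col10a1, up to 5 separating members with the largest difference and up to 4 overlapping members with the highest mean of each list, and outside lists the 12 highest and 12 lowest separating genes with a mean CPM of at least 1. Those printed are a subset, picked after their values were seen. Has2, Pdpn, Sox9, Col11a1, Cytl1, Sp7, Tnmd, Scx, Postn, Lox, Htra4, Alas2, Vsig4, Trem2, Cd163, Ccl2, Camp, Slc4a1, Ifit3, Top2a, Myh3, Mymk, Myog, Pax7, Myod1, Chrng, Chrne, Runx1, Dok7, Pecam1, Acta2 and Adipoq are list members outside the rule, named with their values in view. Python 3.11.15 with matplotlib 3.10.9 drew the figures.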

Additional observations from a re-analysis of the deposited data

Results flagged for a closer look

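Of 20 groups of 4 libraries checked (5 genes in 4 labelled groups), 1 held a library far from the others. Col1a1 in injured inhibitor 3 was at 208 CPM, against 80.5 to 93.8 CPM in the other injured inhibitor libraries, a gap of 0.839 of the group's range on the log2(CPM + 0.5) scale, where 0.829 is Dixon's 95% value for 4 samples. Chance marks about 1 in 20 such groups. This library is not lubricin-high (Prg4 at 11.5 CPM), and it was the highest of the 12 for Col1a1, Col3a1, Fn1 and Lgals3. Of the values in lubricin-high libraries, 0 were marked. In a group with 2 such libraries the gap to the nearest library cannot mark either.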

How the results depend on the processing

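Against 439 genes above and 9 below all 12 others, a Prg4 threshold of 200 CPM, which drops healthy inhibitor 1 from the high libraries, gave 2495 above and 96 below. TMM scaling gave 86 below and DESeq2 size factors 66, with 378 and 390 above. Leaving out 1 library at a time gave 451 to 2567 above and 9 to 100 below. Of 202 named genes, 0 were marked as reversed under the other settings without a test, but only genes that separated could be marked. Separation itself fixes the sign under another pseudocount and within the pairs, so this 0 says little. A change of sign in overlapping genes was not counted. With a pseudocount of 0.1 or 2, 5 of 30 list medians moved by more than the spread. The rest of the list medians moved under TMM (1) and with genes of a mean CPM of at least 1 alone (2).

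The replicate block by name stem (the lubricin-high library minus its partner, same sign in 4 of 4 pairs) gave 4012 genes above and 754 below. That a stem or a replicate number pairs animals is not stated, and deviations from the group means cannot decide it. Same-numbered libraries correlated at 0.21, -0.04, -0.02 and -0.09 with inhibitor and 0.44, -0.16, -0.11 and -0.51 with placebo, and only number 1 of each correlated best with its own number. The lubricin-high placebo libraries, healthy 4 and injured 2 and 3, do not share a number, and their large differences enter these deviations. In edgeR, the replicate block by number called 1 gene for the inhibitor in injured quadriceps and 0 in the other comparisons, and the stem block 0 in both injury comparisons. For Col1a1 with injury and placebo the log2 fold change of -0.02 became 1.71 with the stem and 0.84 with the number as replicate block, and for C1qa with injury and inhibitor -0.07 became 0.12 with the stem.

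For the inhibitor in injured quadriceps, DESeq2 called 253 genes, and in healthy quadriceps 12. Leaving out 1 library at a time, edgeR called 0 to 3 genes for injury with placebo, 0 for injury with inhibitor, 0 to 39 for the inhibitor in injured and 0 to 1 in healthy quadriceps. Without the 4 lubricin-high libraries, estimates reversed for injury with placebo in Prg4 (-0.09) and Mki67 (-0.11), and for injury with inhibitor in C1qa (0.62). For the inhibitor they reversed in injured quadriceps in Prg4 (0.21), Col1a1 (1.08) and Mki67 (0.67). In healthy quadriceps they reversed in Prg4 (0.2), Col1a1 (0.49), C1qa (0.14) and Mki67 (0.59). With 1 library left out, estimates ranged over 0 from -1.15 to 3.19 for Col1a1 with injury and placebo, and with injury and inhibitor from -0.05 to 0.5 for Col1a1 and -0.35 to 0.62 for C1qa. For the inhibitor in healthy quadriceps the ranges were -2.57 to 2.32 for Prg4, -3.02 to 0.62 for Col1a1, -1.47 to 0.83 for C1qa and -2.58 to 1.31 for Mki67, and each upper end came without healthy placebo 4. The cause was not tested. None of these estimates passed edgeR's test. At these depths a gene under 3 counts in a library was not detectable.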
